A study of Mus musculus with 6 samples.

Results

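The proteasome genes were taken as every gene whose symbol is Psm, a letter from a to g and a number, which gave 48 of the 24421 gene symbols in the files. All 48 passed the filter on low values and were tested. Endothelial cells had been sorted from GL26l glioma in C57BL/6 mice, 3 weeks after the tumor cells were injected orthotopically, and from the normal brain of C57BL/6 mice. Each group held 3 libraries, made with the QuantSeq kit of Lexogen, which reads the 3′ end of transcripts, so that levels of different genes can be set side by side without a correction for length. The design text calls the RNA sets independent but does not tie each to an animal, so tests measure only the spread between these samples, which may be technical. The values are log2(x + 1) of normalized values, and a difference is glioma minus normal on that scale. In such bulk samples, fewer cells of a type and less RNA per cell cannot be told apart.

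The proteasome is the main protease of the cytosol and nucleus for proteins tagged with ubiquitin. Its barrel-shaped core is built of outer rings of alpha subunits and inner rings of beta subunits, of which the products of Psmb5, Psmb6 and Psmb7 cut peptide bonds. A regulatory cap of ATPases (Psmc genes) and other subunits (most Psmd genes) binds ubiquitin chains, removes them and unfolds the substrate. Interferon-gamma induces 3 alternative catalytic subunits, encoded by Psmb8, Psmb9 and Psmb10, which replace the products of Psmb5, Psmb6 and Psmb7 in newly built cores. The resulting immunoproteasome is known for trimming peptides for display on MHC class I molecules, and endothelial cells are among the cells that can form it.

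Endothelial identity was clear in each library, with all 12 markers above 0, and they made up 1.22% to 2.19% of the summed back-transformed values in glioma libraries and 2.19% to 3.19% in normal libraries. Detection differed widely: between 10013 and 13108 genes lay above 0 in the glioma libraries, against 7446 in normal replicate 1 and 11853 and 13072 in normal replicates 2 and 3. The lowest value above 0 was 7.43 in normal replicate 1 and 0.22 to 5.22 elsewhere, so that normal replicate 1 holds no value between 0 and 7.43. Normal replicates 2 and 3 resembled each other closely, with a median absolute difference of 0.19 over the 39 proteasome genes above 0 in all 6 libraries, against 0.42 to 1.41 for the other pairs of libraries. Their columns carry a shared date-like number in the file headers, as do those of glioma replicates 2 and 3, and no such number is shared between the groups, so that what it stands for and the group cannot be told apart. The headers of glioma replicates 2 and 3 also carry the words CtrL and Control, while the labels give all 3 glioma libraries the same description. Several results rest on normal replicate 1 or glioma replicate 1 and are given with and without that library.

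As a set, the proteasome genes stood at nearly the same level in both groups. Their median was 9.95, 9.84 and 9.85 in glioma replicates 1, 2 and 3, against 9.88, 9.77 and 9.62 in normal replicates 1, 2 and 3. The median difference over the 48 genes was -0.05, beside 0.05 over all 11862 genes tested, with 22 differences above 0 and 26 below. It was 0.07 without glioma replicate 1, 0.10 without glioma replicate 3 and -0.26 without replicate 1 of both groups. With limma and Benjamini-Hochberg adjustment, 0 of 48 passed an adjusted p of 0.05, as did 0 of all 11862 genes (0.0%). At an unadjusted limma p under 0.05 stood 1 proteasome gene, and it was lower in glioma, beside 509 of all genes (4.29%), of which 2.35% of those tested were higher in glioma and 1.94% lower. The glioma values lay wholly above the normal values for 2 of 48 genes, beside 6.91% of all genes, and wholly below for 1 gene, beside 6.37%. As shares of the 48 these are 6.25% without overlap, beside 13.3% of all genes, and 2.08% at an unadjusted p under 0.05, close to the 1.94% of all genes in the same direction. Leaving out replicate 1 of either group raised these counts for the proteasome genes and for all genes. For overlap the direction was fixed beforehand, since leaving out a library can only keep or raise the number of genes without overlap. Leaving out any other single library gave 15.0% to 22.4% of all genes without overlap. Without normal replicate 1, groups did not overlap for 27.1% of the proteasome genes, beside 35.4% of all genes. There 10.4% had an unadjusted limma p under 0.05 with higher values in glioma, beside 5.40%. Lower values at that p were found for 0.0%, beside 4.81%, so both directions together gave 10.4%, beside 10.2%. Without glioma replicate 1 there was no overlap for 29.2% of the proteasome genes, beside 27.1% of all genes. Without replicate 1 of both groups there was none for 47.9%, beside 55.5%. An unadjusted limma p under 0.05 was then reached by 18.8% higher in glioma and 8.33% lower, beside 9.35% and 11.3% of all genes, with 0 past the adjusted threshold.

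**Figure D1:**
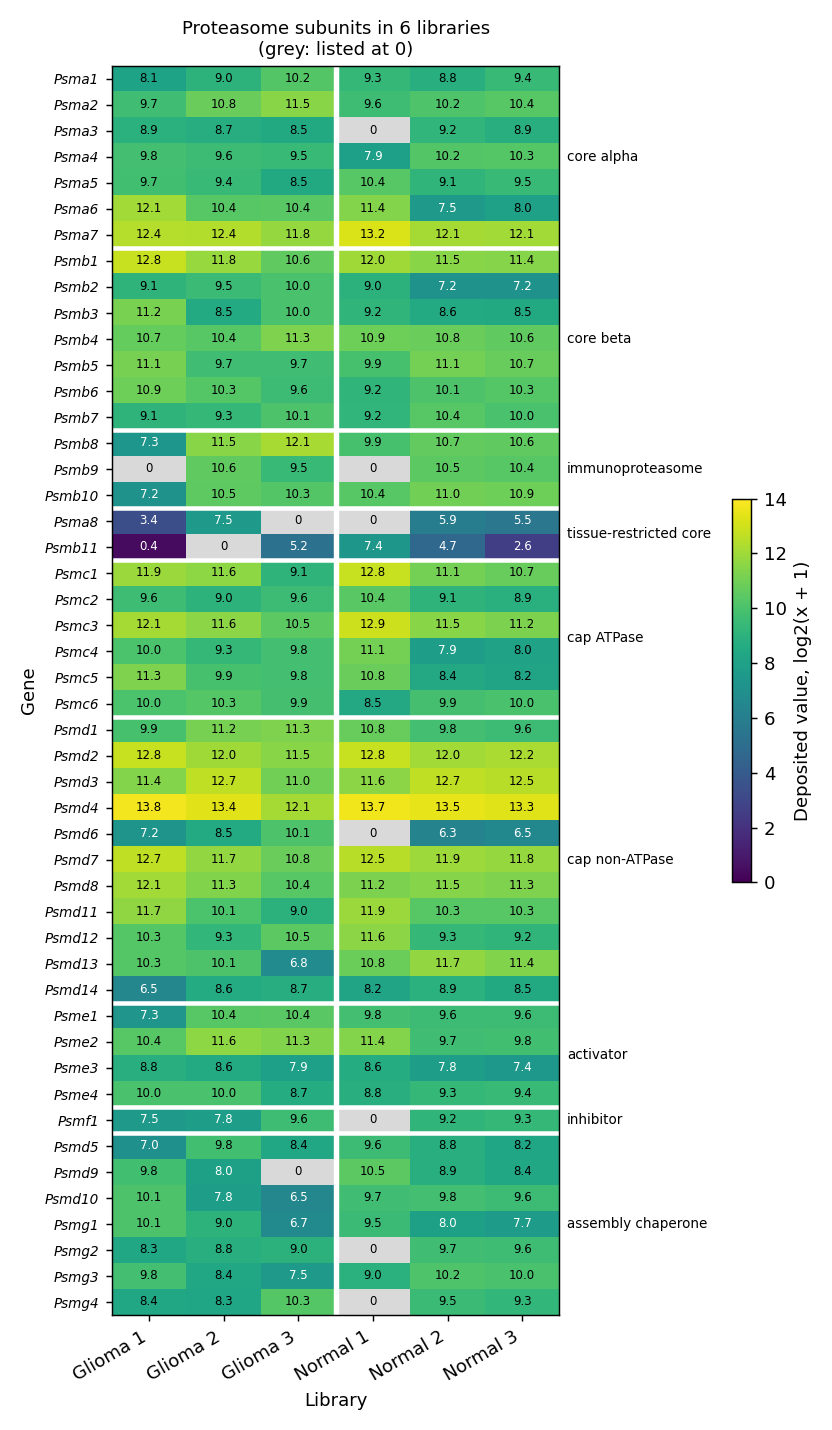
Deposited log2(x + 1) value of each of the 48 proteasome genes (rows, by role) in the 6 libraries (columns, glioma left of normal). Psmd4 has the highest mean of the rows in both groups, the 3 immunoproteasome rows are low in glioma replicate 1, and 7 genes are listed at 0 in normal replicate 1.

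The order of levels within the complex was largely shared by the groups. Over the 39 genes above 0 in every library, Pearson's r between the glioma mean and the normal mean was 0.79 and Spearman's rho was 0.71, a description across genes that share libraries and normalization. Psmd4, a ubiquitin receptor of the cap, was the highest at 13.76, 13.40 and 12.10 in glioma libraries, against 13.72, 13.48 and 13.30 in normal libraries. Psma7, an alpha subunit of the core, followed at 12.44, 12.38 and 11.78 in glioma libraries, against 13.20, 12.13 and 12.05 in normal libraries. Next in both groups was Psmd2, the large scaffold subunit of the cap base, at 12.11 ± 0.68 in glioma and 12.36 ± 0.40 in normal libraries (SD, n = 3 each). With limma adjusted p from 0.890 to 0.925, none of the 3 differed beyond the spread between replicates. Levels of these 39 genes were spread over SDs of 1.31 to 1.76 log2 units among genes in the glioma libraries and 1.46 to 1.505 in the normal libraries. Together the 48 genes made up 0.550%, 0.456% and 0.339% of the summed back-transformed values in glioma replicates 1, 2 and 3, against 0.590%, 0.436% and 0.402% in the normal libraries, so the groups overlapped.

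The immunoproteasome genes varied widely among the glioma libraries and little among the normal ones, apart from a 0 for Psmb9. Normal replicates 2 and 3 were close over the whole table too, with a median absolute difference of 0.20 over genes above 0 in all 6 libraries. The small normal spread is therefore not particular to these genes. Psmb8, which encodes the chymotrypsin-like immunosubunit (chromosome 17, 34197721 to 34201454 in the mm10 build), stood at 7.34, 11.53 and 12.14 in glioma replicates 1, 2 and 3, against 9.93, 10.66 and 10.58 in normal replicates 1, 2 and 3. Glioma replicate 1 lay below all normal libraries and glioma replicates 2 and 3 above all of them. The mean was thus almost the same, 10.34 ± 2.62 in glioma and 10.39 ± 0.40 in normal libraries (SD, n = 3 each), a difference of -0.05 (SE 1.14, limma adjusted p = 0.995). Without glioma replicate 1 the difference was 1.45 (SE 0.47, limma unadjusted p = 0.020 and adjusted p = 0.775).

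Psmb10 (chromosome 8, 105935735 to 105938444), the trypsin-like immunosubunit, was at 7.16, 10.52 and 10.26 in glioma libraries, against 10.38, 10.998 and 10.89 in normal libraries. Glioma replicate 1 was the lowest here too, while glioma replicate 2 lay above normal replicate 1, so the groups overlapped. The difference was -1.44 (SE 0.90, limma adjusted p = 0.875), and -0.37 (SE 0.46) without glioma replicate 1. Psmb9 (chromosome 17, 34181987 to 34187764), which replaces the caspase-like Psmb6 product, was listed at 0 in glioma replicate 1 and at 10.59 and 9.47 in glioma replicates 2 and 3, against 0 in normal replicate 1 and 10.49 and 10.39 in normal replicates 2 and 3. A 0 does not mean the same in these libraries, since the lowest value above 0 was 0.42 in glioma replicate 1 and 7.43 in normal replicate 1.

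**Figure D2:**
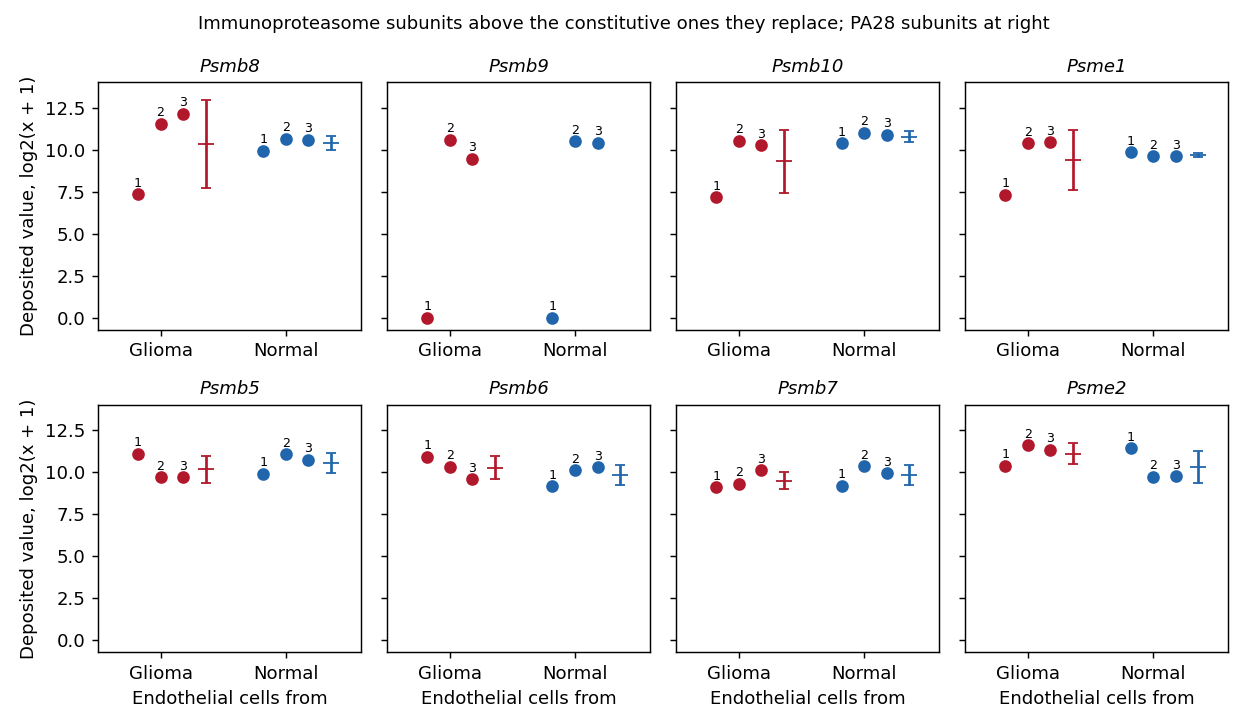
Deposited log2(x + 1) values of Psmb8, Psmb9, Psmb10 and Psme1 (top) and of Psmb5, Psmb6, Psmb7 and Psme2 (bottom) in glioma and normal libraries. Points are libraries with their replicate number, and bars show mean ± SD where no library is listed at 0. In the top row glioma replicate 1 is the lowest point or is listed at 0, while it is the highest point in Psmb5 and Psmb6 and the lowest in Psmb7 and among the glioma points of Psme2.

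Of the constitutive catalytic genes, Psmb5 and Psmb6 were highest in glioma replicate 1 and Psmb7 was lowest there, by a small margin. Psmb5, of the chymotrypsin-like subunit, was at 11.11, 9.71 and 9.69 in glioma libraries, against 9.92, 11.07 and 10.74 in normal libraries. Psmb6, of the caspase-like subunit, was at 10.92, 10.32 and 9.57 in glioma libraries, against 9.17, 10.12 and 10.29 in normal libraries. Psmb7, of the trypsin-like subunit, was at 9.10, 9.32 and 10.11 in glioma libraries, against 9.19, 10.35 and 9.95 in normal libraries. For all 3 the groups overlapped, with differences of -0.41 (SE 0.61), 0.41 (SE 0.61) and -0.32 (SE 0.63) and limma adjusted p of 0.899, 0.898 and 0.926.

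Set against its constitutive counterpart within each library, Psmb8 minus Psmb5 was -3.77, 1.82 and 2.45 log2 units in glioma replicates 1, 2 and 3, against 0.00, -0.41 and -0.16 in the normal libraries. The same log2 difference for Psmb10 minus Psmb7 was -1.95, 1.199 and 0.15 in glioma libraries, against 1.19, 0.65 and 0.94 in normal libraries. In the libraries where Psmb9 lay above 0, Psmb9 minus Psmb6 was 0.27 and -0.11 in glioma replicates 2 and 3, against 0.38 and 0.10 in normal replicates 2 and 3. The ordering in glioma replicates 2 and 3 above the normal libraries therefore held for the Psmb8 pair and not for the other pairs. Of the summed back-transformed values of the 6 catalytic genes, the immunoproteasome genes held 6.06%, 68.4% and 70.6% in glioma replicates 1, 2 and 3, against 52.0%, 52.8% and 54.7% in the normal libraries. The glioma values thus lay on both sides of a narrow normal range. In that range normal replicates 2 and 3 resembled each other closely over all genes, and Psmb9 entered as 0 in normal replicate 1, as in glioma replicate 1.

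**Figure D3:**
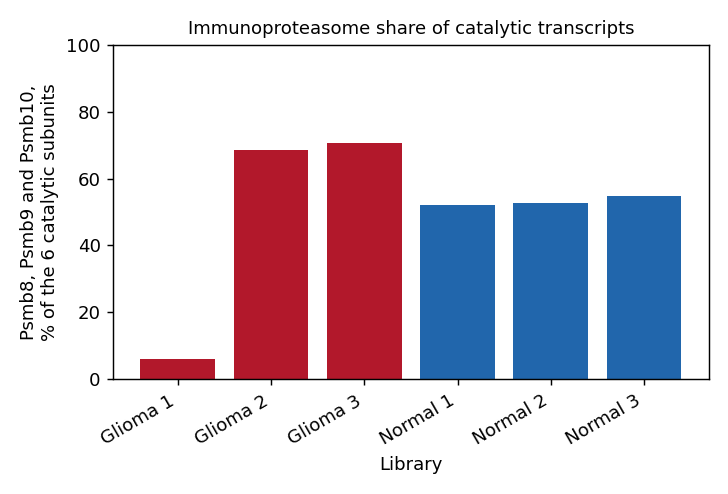
Share of Psmb8, Psmb9 and Psmb10 in the summed back-transformed values of the 6 catalytic subunit genes (percent, axis from 0 to 100), 1 bar a library. Glioma replicate 1 stands at 6.06%, glioma replicates 2 and 3 at 68.4% and 70.6%, and the normal libraries at 52.0% to 54.7%.

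Other interferon and antigen processing genes shared the pattern of the immunoproteasome genes only in part. Nlrc5, an activator of MHC class I genes, was at 2.62, 7.83 and 8.27 in glioma libraries, against 0, 7.16 and 6.89 in normal libraries. Replicate 1 was the lowest library of each group. Tap1, which encodes a peptide transporter subunit and starts next to Psmb9 on the opposite strand, was at 11.70, 14.49 and 11.61 in glioma libraries, against 13.40, 12.69 and 12.71 in normal libraries. Tap1 was thus well above 0 in both libraries where Psmb9 was listed at 0. Of the 8 genes of this list, 0 passed the limma test and 0 had groups that did not overlap.

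Marker transcripts of leukocytes, which use immunoproteasomes constitutively, differed between the glioma libraries. Of 14 microglia and macrophage markers, 13, 4 and 12 lay above 0 in glioma replicates 1, 2 and 3, against 6, 7 and 10 in the normal libraries. Their sum was 0.0043%, 0.0132% and 0.215% of all back-transformed values in glioma replicates 1, 2 and 3, against 0.0175%, 0.002% and 0.0012% in the normal libraries. In glioma replicate 2 the 10 markers at 0 included Cx3cr1, Csf1r, Aif1 and Itgam, and its sum lay between that of normal replicate 1 and those of normal replicates 2 and 3. The 4 B cell markers were at 0 in all 6 libraries, and at most 1 of 8 T and NK cell markers lay above 0 in any library. The 3 granulocyte markers in the files were all above 0 in glioma replicate 1, at 0.0509% of its sum, and all at 0 in glioma replicates 2 and 3. Glioma replicate 1 also had the highest sums of 5 neuron markers (0.0421%, beside at most 0.007% elsewhere), 6 fibroblast markers (0.0216%, beside at most 0.0041%) and 4 proliferation genes (0.0426%, beside at most 0.0168%). The part of other cells in the immunoproteasome values was not tested.

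Promoter sequence is shown for the immunoproteasome genes and Psme1, which were lowest or listed at 0 in glioma replicate 1, and for Psmb5 as a constitutive counterpart. Each runs 5′ to 3′ on the strand of the gene over the 300 bases around its start in RefSeq (build GRCm38.p6), and capitals mark the motif matches named after the sequences.
Psmb8 (chr17:34197945-34198244, plus strand): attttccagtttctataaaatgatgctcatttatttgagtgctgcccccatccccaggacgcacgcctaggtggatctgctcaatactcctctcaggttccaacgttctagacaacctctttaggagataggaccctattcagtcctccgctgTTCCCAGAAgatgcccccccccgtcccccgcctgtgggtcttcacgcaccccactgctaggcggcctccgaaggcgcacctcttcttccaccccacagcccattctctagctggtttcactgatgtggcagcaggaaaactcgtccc
Psmb9 (chr17:34187281-34187580, minus strand): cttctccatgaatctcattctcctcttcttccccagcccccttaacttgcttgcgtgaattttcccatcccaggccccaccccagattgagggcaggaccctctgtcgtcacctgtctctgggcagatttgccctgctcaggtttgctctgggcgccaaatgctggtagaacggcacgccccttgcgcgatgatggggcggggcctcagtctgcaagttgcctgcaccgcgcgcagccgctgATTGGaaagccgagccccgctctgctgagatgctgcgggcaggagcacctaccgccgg
Psmb10 (chr8:105938343-105938642, minus strand): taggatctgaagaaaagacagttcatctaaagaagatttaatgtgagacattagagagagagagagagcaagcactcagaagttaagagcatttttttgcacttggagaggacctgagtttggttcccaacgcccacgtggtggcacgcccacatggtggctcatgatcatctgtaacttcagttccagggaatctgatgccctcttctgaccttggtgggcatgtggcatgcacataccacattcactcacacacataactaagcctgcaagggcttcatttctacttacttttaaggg
Psme1 (chr14:55578244-55578543, plus strand): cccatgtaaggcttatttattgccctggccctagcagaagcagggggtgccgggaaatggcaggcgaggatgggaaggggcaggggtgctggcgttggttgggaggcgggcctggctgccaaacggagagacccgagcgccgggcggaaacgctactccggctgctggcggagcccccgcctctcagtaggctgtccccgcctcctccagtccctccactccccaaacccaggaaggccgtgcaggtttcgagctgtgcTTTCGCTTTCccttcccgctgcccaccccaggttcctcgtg
Psmb5 (chr14:54617946-54618245, minus strand): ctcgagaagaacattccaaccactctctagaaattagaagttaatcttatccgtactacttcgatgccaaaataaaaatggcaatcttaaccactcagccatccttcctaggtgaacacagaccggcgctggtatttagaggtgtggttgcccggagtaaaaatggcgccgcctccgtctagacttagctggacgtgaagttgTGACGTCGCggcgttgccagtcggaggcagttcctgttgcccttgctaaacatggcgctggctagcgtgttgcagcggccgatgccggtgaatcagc

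In the Psmb8 promoter the capitals are a match to the core of the gamma-activated site (TTCNNNGAA), 89 to 97 bases before the start. The Psme1 promoter holds a match on the minus strand to the core of the interferon-stimulated response element (GAAA, any 2 bases, GAAA), 9 to 18 bases after the start. In the Psmb9 promoter they mark a CCAAT box on the minus strand, and in the Psmb5 promoter the core of an antioxidant response element (TGACNNNGC), 39 to 47 bases before the start. The Psmb10 window holds no match to the 4 motifs searched. The RefSeq starts used here can differ from the annotated gene ends. The Psmb8, Psmb9 and Psme1 windows shown lie wholly inside their annotated genes. The promoter windows of Psmb9 and Tap1 share 275 of their 300 bases. Promoter windows were found for 40 of the 48 genes, 43 windows in all. Both strands were searched, and matches of different motifs may overlap. The interferon-stimulated element core was in 5 of the 43 windows (11.6%), beside 3.44% of all 32851 promoter windows of this length. The 5 are windows of Psmb3, Psmd4, Psmd9, Psme1 and Psmg4, none of them an immunoproteasome gene. The antioxidant element core was in 6, beside 12.4%, the gamma-activated site core in 3 (6.98%), beside 8.30%, and the CCAAT box in 14 (32.6%), beside 37.4%. These matches are a description of the letters.

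The activators open the core without ubiquitin or ATP. Psme1, which encodes the alpha subunit of the interferon-induced activator PA28 (chromosome 14, 55578123 to 55581529), was at 7.30, 10.37 and 10.44 in glioma replicates 1, 2 and 3, against 9.83, 9.61 and 9.61 in normal libraries. As with Psmb8, glioma replicate 1 lay below all normal libraries and the other glioma libraries above them. The difference was -0.31 (SE 0.91, limma adjusted p = 0.953), and 0.72 (SE 0.48) without glioma replicate 1. Psme2, of the beta subunit (chromosome 14, 55587441 to 55591113), was at 10.38, 11.61 and 11.34 in glioma libraries, against 11.43, 9.72 and 9.77 in normal libraries. Normal replicate 1 stood with the glioma libraries, and the difference of 0.80 (SE 0.64, limma adjusted p = 0.875) was 1.36 (SE 0.50, adjusted p = 0.471) without it.

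Psme2 has a near-identical copy, Psme2b, whose values were 9.59, 11.12 and 11.26 in glioma libraries, against 10.39, 11.16 and 11.10 in normal libraries. All 199 aligned bases in the last 200 of their annotated transcripts were identical, so how 3′ reads were split between them is uncertain. Psme3, of the nuclear activator PA28-gamma, was at 8.79, 8.57 and 7.88 in glioma libraries, against 8.64, 7.77 and 7.45 in normal libraries. Psme4, of the activator PA200, was at 10.003, 9.95 and 8.69 in glioma libraries, against 8.76, 9.33 and 9.43 in normal libraries. Both had overlapping groups, with differences of 0.46 (SE 0.94) and 0.38 (SE 0.68) and limma adjusted p of 0.932 and 0.917. Psmf1, of the proteasome inhibitor PI31, was at 7.53, 7.77 and 9.63 in glioma libraries, against 0, 9.16 and 9.35 in normal libraries. Its difference of 2.14 (SE 2.503, limma adjusted p = 0.878) turned to -0.94 without normal replicate 1.

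Among the 7 alpha subunits of the constitutive core, 0 passed the limma test and the median difference was 0.16. Psma3 had the largest difference, 2.71 (SE 2.39, limma adjusted p = 0.875). It was at 8.94, 8.74 and 8.51 in glioma libraries, against 0, 9.22 and 8.86 in normal libraries, and the difference was -0.31 without normal replicate 1. Psma6 was at 12.05, 10.39 and 10.42 in glioma libraries, against 11.40, 7.54 and 8.03 in normal libraries, where normal replicate 1 stood among the glioma values. It is named after its values were seen, since it had an unadjusted limma p of 0.0027 (adjusted p = 0.391) and a difference of 3.17 without normal replicate 1, beside 1.97 (SE 1.04) over all libraries. Psma2 and Psma4 had means of 10.67 ± 0.91 and 9.64 ± 0.17 in glioma libraries, against 10.06 ± 0.37 and 9.48 ± 1.38 in normal libraries (SD, n = 3 each). The remaining alpha genes, Psma1, Psma5 and Psma7, had differences of -0.05, -0.44 and -0.26.

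Of the 7 constitutive beta subunits, Psmb2 alone had groups that did not overlap. This structural subunit (chromosome 4, 126677630 to 126709714) was at 9.13, 9.52 and 9.996 in glioma libraries, against 8.99, 7.16 and 7.21 in normal libraries. Every glioma library was above every normal library, though glioma replicate 1 was close to normal replicate 1. The difference was 1.76 (SE 0.87, limma adjusted p = 0.875), and 2.36 (SE 0.65, adjusted p = 0.398) without normal replicate 1. The most abundant beta gene, Psmb1, was at 12.85, 11.82 and 10.57 in glioma libraries, against 11.98, 11.50 and 11.44 in normal libraries. Psmb4 hardly differed, at 10.79 ± 0.46 in glioma and 10.76 ± 0.17 in normal libraries (SD, n = 3 each), and Psmb3 was at 9.90 ± 1.32 in glioma and 8.75 ± 0.38 in normal libraries.

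The 6 ATPases of the cap base had 3 differences above 0 and 3 below, with a median of 0.29. Psmc5 showed the largest, 1.22 (SE 0.84, limma adjusted p = 0.875). It was at 11.31, 9.92 and 9.84 in glioma libraries, against 10.78, 8.45 and 8.20 in normal libraries, and normal replicate 1 lay within the glioma range. Psmc3, the ATPase gene with the highest mean, was at 12.12, 11.56 and 10.47 in glioma libraries, against 12.94, 11.52 and 11.24 in normal libraries. Normal replicate 1 was the highest library for 4 of the 6 ATPase genes, Psmc1, Psmc2, Psmc3 and Psmc4. Without it the difference was 2.04 (SE 0.63, limma adjusted p = 0.413) for Psmc5 and 1.76 (SE 0.57, adjusted p = 0.422) for Psmc4, whose difference over all libraries was 0.72 (SE 0.94).

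The 11 other cap subunits had 8 differences below 0 and a median of -0.34. Psmd13, which encodes the lid subunit Rpn9 (chromosome 7, 140881968 to 140898643), was at 10.32, 10.07 and 6.77 in glioma libraries, against 10.83, 11.71 and 11.37 in normal libraries. Every glioma library was below every normal library, and glioma replicate 3 was lowest by over 3 log2 units. The difference was -2.25 (SE 0.93, limma unadjusted p = 0.041 and adjusted p = 0.875). It was the only proteasome gene at an unadjusted p under 0.05, and the difference was -1.11 (SE 0.48, adjusted p = 0.941) without glioma replicate 3.

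Psmd6, of the lid subunit Rpn7 (chromosome 14, 14112174 to 14120984), went the other way and was at 7.22, 8.54 and 10.06 in glioma libraries, against 0, 6.27 and 6.52 in normal libraries. Its groups did not overlap, and the difference was 4.35 (SE 2.30, limma adjusted p = 0.875). Part of that size comes from the 0 in normal replicate 1, without which it was 2.21 (SE 1.11). With every value raised to a shared floor of 7.43 it was 1.25, and the lowest glioma library and the normal libraries were then equal. Glioma replicate 3 was the lowest of the 6 libraries for 7 of the 11 genes, Psmd2, Psmd3, Psmd4, Psmd7, Psmd8, Psmd11 and Psmd13. Psmd14, of the deubiquitinase of the lid, averaged 7.94 ± 1.27 in glioma and 8.54 ± 0.39 in normal libraries (SD, n = 3 each). Psmd1 and Psmd12 had differences of 0.73 and 0.00.

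**Figure D4:**
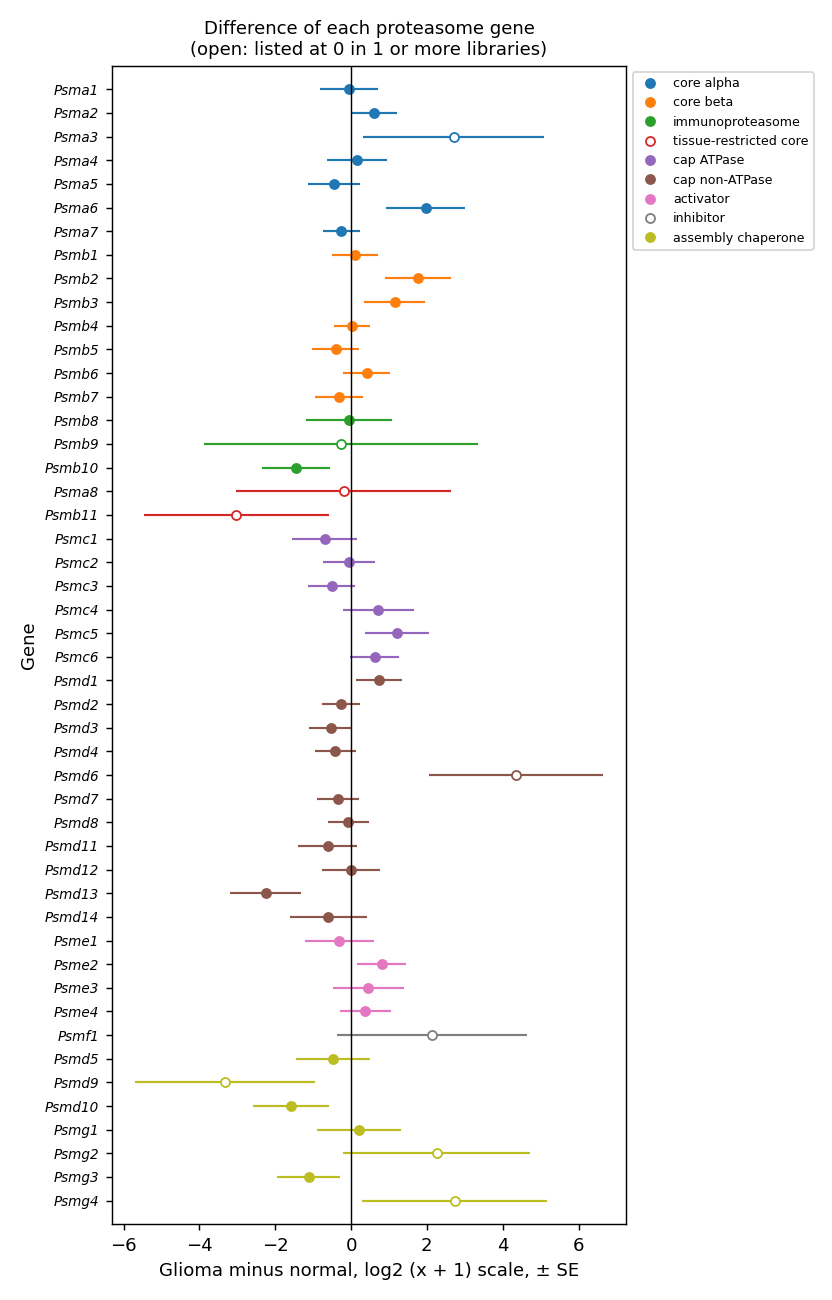
Difference of each proteasome gene, glioma minus normal in log2(x + 1) units (horizontal), with bars of ± 1 SE from limma and n = 3 libraries a group. Colours give the role and open circles mark genes listed at 0 in 1 or more libraries. Of the 48 points 33 lie within 1 SE of 0, Psmd13, Psmb2, Psma6 and Psmd6 lie the most SEs away from it, and the 9 longest bars belong to genes listed at 0 in a library.

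Assembly chaperones bind subunits during construction and leave the finished particle. Among these genes, Psmd5, Psmd9 and Psmd10 encode chaperones of the cap base and had differences of -0.48, -3.32 and -1.59. That of Psmd5 turned to 0.21 without glioma replicate 1. Psmd9 was at 9.79, 7.97 and 0 in glioma libraries, against 10.50, 8.86 and 8.36 in normal libraries, and its groups overlapped. Without glioma replicate 3, where it was listed at 0, its difference was -0.36. Psmd10, the oncoprotein gankyrin, was at 10.09, 7.81 and 6.46 in glioma libraries, against 9.69, 9.83 and 9.59 in normal libraries. Glioma replicate 1 was the highest library and glioma replicates 2 and 3 the lowest, and without glioma replicate 1 the difference was -2.57 (SE 0.80, limma adjusted p = 0.775).

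Of the core chaperones, which pair the alpha subunits into a ring, Psmg3 was at 9.84, 8.36 and 7.53 in glioma libraries, against 8.96, 10.17 and 9.96 in normal libraries. Psmg1 averaged 8.61 ± 1.74 in glioma and 8.40 ± 1.00 in normal libraries (SD, n = 3 each). Psmg2 was at 8.33, 8.80 and 8.99 in glioma libraries, against 0, 9.71 and 9.63 in normal libraries. Psmg4 was at 8.40, 8.30 and 10.29 in glioma libraries, against 0, 9.53 and 9.26 in normal libraries. None of the 7 chaperone genes passed the limma test, where each adjusted p was at least 0.875.

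The pair of core genes known from other tissues stood near the bottom of the range. Psma8, a testis alpha subunit, was at 3.37, 7.54 and 0 in glioma libraries, against 0, 5.94 and 5.55 in normal libraries. Psmb11, the thymus subunit that marks the thymoproteasome, was at 0.42, 0 and 5.22 in glioma libraries, against 7.43, 4.65 and 2.62 in normal libraries. Its value in normal replicate 1 equals the lowest value above 0 of that library.

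Most of the largest positive differences rested on normal replicate 1. That library listed 7 of the 48 genes at 0, namely Psma3, Psma8, Psmb9, Psmd6, Psmf1, Psmg2 and Psmg4, against 0 genes in normal replicates 2 and 3 and 1, 1 and 2 genes in glioma replicates 1, 2 and 3. The 5 largest positive differences, those of Psmd6, Psmg4, Psma3, Psmg2 and Psmf1, all belong to genes in that list. Without normal replicate 1, Psmd6 kept a positive difference and the other 4 turned to -0.40, -0.31, -0.96 and -0.94 in the same order. The 39 genes that no library listed at 0 had a median difference of -0.05, beside -0.18 over the 5880 such genes of the whole table.

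**Figure D5:**
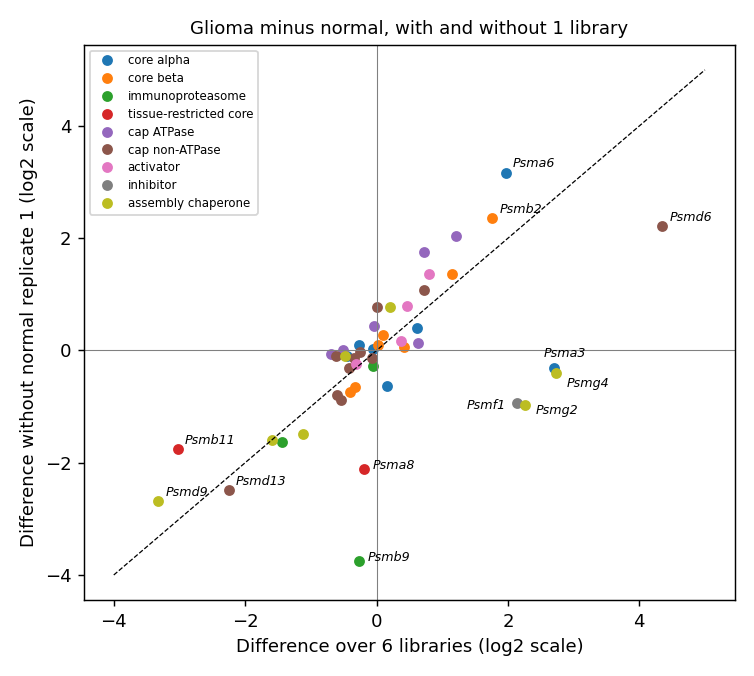
Difference of each proteasome gene, glioma minus normal on the log2 scale, over all 6 libraries (horizontal) and without normal replicate 1 (vertical), coloured by role, with the line of equal values dashed. Psma3, Psmg4, Psmg2 and Psmf1 lie right of 0 and below 0 on the vertical axis, Psmd6 stays above 0, and Psmb9 and Psma8 move down.

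Other genes of the ubiquitin and proteasome pathway were read from the same fit. Of 37 such genes, 36 were matched in the files and tested, with 20 differences above 0 and 16 below, a median difference of 0.30, and 0 past the limma threshold. Ufd1l, which encodes a ubiquitin-binding cofactor of the unfoldase Vcp, was at 11.19, 10.34 and 9.98 in glioma libraries, against 9.05, 9.25 and 9.20 in normal libraries. All glioma libraries lay above all normal ones, with a difference of 1.34 (SE 0.58, limma unadjusted p = 0.049 and adjusted p = 0.875). Vcp itself was at 12.21, 12.10 and 11.94 in glioma libraries, against 12.01, 12.10 and 12.36 in normal libraries.

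Keap1, the adaptor that targets the transcription factor Nrf2 for degradation, was at 11.05, 11.90 and 11.24 in glioma libraries, against 12.58, 12.17 and 12.31 in normal libraries. All glioma libraries were lower, with a difference of -0.96 (SE 0.44, limma adjusted p = 0.875). The row AI314180, the mouse gene of the proteasome adaptor Ecm29, was at 9.58, 7.57 and 8.86 in glioma libraries, against 9.63, 9.97 and 9.83 in normal libraries, again without overlap. Ubqln2, of a shuttle that carries ubiquitinated proteins to the cap, was at 10.48, 9.39 and 9.52 in glioma libraries, against 0, 8.74 and 8.72 in normal libraries. Nfe2l1, the transcription factor that raises proteasome genes when the proteasome is inhibited, was at 12.27, 12.44 and 12.46 in glioma libraries, against 11.37, 13.84 and 13.78 in normal libraries. B2m, the light chain of MHC class I, had the highest mean of the list and was at 16.02, 16.39 and 15.88 in glioma libraries, against 16.26, 13.91 and 14.05 in normal libraries.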

How the data were processed

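Endothelial RNA of 3 glioma and 3 normal mouse brain libraries was compared, with groups taken from the sample titles. Each file holds 1 value for each of 24421 symbols. Per the submitters' processing notes, Bowtie2 and the build mm10 are among the names listed, with no role stated. How reads were counted, with or without strand, and how values were normalized is not given in the sources used here. The deposited log2 values were read from their form as log2(x + 1) of values quantile-normalized by the authors. The highest was 20.85 in every library, that of Rn45s. Back-transformed values above 0 lay within 0.02 of a multiple of 1 divided by 6. Depth is therefore unknown.

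The 11862 genes that reached 1 after back-transformation in 3 or more libraries entered a limma fit (limma 3.58.1, R 4.3.3) of group alone, whose variance prior followed a mean trend, with 4 degrees of freedom left. The script was tested on simulated data. Benjamini-Hochberg adjustment ran over all of these genes, with a threshold of 0.05. Shares were computed from back-transformed values. Coordinates are from GENCODE M21 (GRCm38, the assembly of mm10), promoters from RefSeq.

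Values are printed by library for the catalytic genes, activators and inhibitor, for genes with an unadjusted p under 0.05 or groups that do not overlap, for the gene with the largest difference and the highest mean in each role, and for genes listed at 0. The genes, lists and tests were chosen with earlier results of these data known. An annotated gene overlaps the last 300 bases of Psma3, Psmb7, Psmb8, Psmb10, Psmc3 and Psme1 on the opposite strand and of Psmd1 and Psmg3 on the same strand, so their values are uncertain: reads of such pairs may not have been told apart. Alternatives changed the filter, the floor, the pseudocount, the centring, the variance prior, the replicate block and the libraries used. Single values of some pathway genes are not reported here.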

Additional observations from a re-analysis of the deposited data

How the results depend on the processing

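No proteasome gene passed the adjusted limma threshold under any alternative run. Over all genes the count stayed at 0 except without the mean trend, which gave 15. Unadjusted p under 0.05 was reached by 2 proteasome genes with genes above 0 in all 6 libraries only, and by 0 with a shared floor, without the mean trend, or, added after the data were seen, with normal replicates 2 and 3 averaged. Of all genes, 2.55% to 6.02% reached it in these settings. With libraries left out this count of proteasome genes ranged from 0 to 13, genes without overlap numbered 3 to 23 (13 without normal replicate 1, 14 without glioma replicate 1) and the median difference ran from -0.26 to 0.10, the extremes at 13, 23 and -0.26 being those without replicate 1 of both groups, a choice made after the data were seen. As shares of the proteasome genes these were 0.0% to 27.1% and 6.25% to 47.9%. Over all genes the same settings gave 2.55% to 20.6% and 15.0% to 55.5%. The replicate number as a block gave 2 proteasome genes (4.17%) at an unadjusted limma p under 0.05, beside 5.14% of all genes. Deviations from the group means correlated at 0.13, 0.03 and 0.06 for same-numbered libraries, beside -0.14 to 0.09 for differently numbered ones. With so few libraries a group, these values cannot decide whether the numbers pair the samples. Of 26 genes followed, 11 kept their sign under the floor, the centring, each left-out library and the omission of replicate 1 of both groups. Psmb11 came to 0 with the shared floor. The shared floor turned the difference of Psma8 to 0.038, Psmf1 to -0.33 and Psmg2 to -0.22, and median centring turned Psmb8 to 0.042. With libraries left out, differences ranged from -0.41 to 4.30 for Psma3, -0.47 to 0.11 for Psma7, -2.14 to 1.63 for Psma8, -0.45 to 0.69 for Psmb1, -0.25 to 0.76 for Psmb6, -0.95 to 1.45 for Psmb8, -3.75 to 3.07 for Psmb9, -0.88 to 0.0035 for Psmc3, -0.75 to 0.079 for Psmd4, -0.85 to 0.79 for Psme1, -0.055 to 0.80 for Psme4, -0.94 to 3.73 for Psmf1, -0.96 to 3.89 for Psmg2 and -0.40 to 4.37 for Psmg4. The causes were not tested. Without counts, sequencing depth cannot be weighed.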
